A study of Mus musculus with 7 samples.

Results

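Small RNAs held by 2 Ago2 mutants, Q548A and R792A_C793A, were set directly against each other, with no wild-type library in the comparison. The 2 libraries were taken from the 7 of the series by their genotype labels. Each gave counts for mature miRNAs, and each mature name was counted once, by its highest locus. Of the 950 miRNAs so obtained, 328 had a mean of at least 10 counts per 1000000 (CPM) over the 2 libraries and were compared. Both libraries came from mouse embryonic stem cells in which the native Argonautes are missing, grown on gelatin with leukemia inhibitory factor. Both carried a Flag-tagged Ago2, which was pulled down with an anti-Flag antibody before its small RNAs were sequenced. One differs from wild-type Ago2 by the change Q548A, the other by the paired changes R792A and C793A. The remaining 5 libraries came from wild-type Ago2, from K566A, GKT_GKGT and PGKTP_AAAAA, and from an empty control, and they appear below only as background. Whether a line was 1 clone, and how strongly each Ago2 was expressed, is not stated in the labels. With 1 library on each side no difference has a replicate check, so every statement is about these 2 libraries and no p-value is given.

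Ago2 is the Argonaute protein that carries a microRNA to its target messenger RNAs. A miRNA hairpin is cut to a duplex of a 5p and a 3p arm, and Argonaute keeps one strand as the guide while the other, the passenger, is lost. The MID domain, which holds Q548, binds the 5′ phosphate of the guide and contacts its first base, and the end of the PIWI domain, which holds R792 and C793, completes that pocket. In textbook accounts a strand that begins with U or A is favoured as guide over one that begins with C or G. The bases that follow, positions 2 to 8, are the seed that pairs with targets.

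The sequences below belong to miRNAs picked from those named in the text, so their first bases do not stand for all calls. They are RefSeq's mature sequences of build GRCm38.p6, written 5′ to 3′, with the seed in capitals. The first set came out higher with R792A_C793A, and 3 of its 4 members begin with C while the other, miR-148a-5p, begins with A.
miR-674-3p: cACAGCUCccaucucagaacaa
miR-196a-1-3p: cAACGACAucaaaccaccugau
miR-200a-5p: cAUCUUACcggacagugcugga
miR-148a-5p: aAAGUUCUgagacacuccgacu
The second set, picked from those higher with Q548A, begins with G or U. It leaves out A-first miR-130b-5p, which had a log2 ratio of 1.53 and is printed further below.
miR-291b-5p: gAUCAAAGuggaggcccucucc
miR-370-3p: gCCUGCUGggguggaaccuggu
miR-673-3p: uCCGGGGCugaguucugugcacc
The third set holds 3 members of the miR-30 family, which share seed and first base and yet did not share a ratio. Of these, U-first miR-30a-5p and miR-30e-5p were also called higher with R792A_C793A.
miR-30a-5p: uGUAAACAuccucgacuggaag
miR-30e-5p: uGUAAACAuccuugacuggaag
miR-30c-5p: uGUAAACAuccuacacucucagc
The last set gives both arms of 2 hairpins whose more abundant arm differed between the libraries.
miR-434-5p: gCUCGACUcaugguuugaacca
miR-434-3p: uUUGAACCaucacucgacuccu
let-7d-5p: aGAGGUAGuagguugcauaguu
let-7d-3p: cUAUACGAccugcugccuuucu

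The Q548A library held 94700428 counts and the R792A_C793A library 56066232, within the range of 14914048 to 94842507 over the 6 Ago2 libraries. The empty control held 33461. Counts above 0 were found for 788 miRNAs with Q548A and for 772 with R792A_C793A. Where a miRNA had no count, up to 3 counts remain possible, equal to 0.0317 CPM with Q548A and 0.0535 CPM with R792A_C793A. A difference was called when the exact 95% counting interval of the CPM ratio lay wholly beyond 2-fold. Without molecular identifiers in the reads, these intervals cover the error of counting and nothing else. CPM is a share of the counted miRNAs, so it does not tell a larger amount of one miRNA from a smaller amount of the others.

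Most miRNAs were held at like levels by both mutants, and the calls leaned toward R792A_C793A. The interval lay beyond 2-fold for 15 of 328 miRNAs on the side of Q548A (4.57%) and for 42 on the side of R792A_C793A (12.8%), while 266 ratios lay within 2-fold. The median log2 ratio of Q548A over R792A_C793A was -0.25, with quartiles of -0.69 and 0.16. The extremes were miR-342-5p at -3.36 and miR-668-3p at 2.66. CPM correlated across the 328 miRNAs with a Spearman rho of 0.931, where the points share 2 libraries and are not independent replicates. How the calls divide depends on the scale. Median-of-ratios scaling, which sets the typical miRNA to no change, moves every log2 ratio up by 0.28, so that ratios and list medians less than that below 0 change sign. It gave 29 calls higher with Q548A (8.84%) and 23 higher with R792A_C793A (7.01%). Of the 57 calls, 38 held on both scales, 15 of them higher with Q548A and 23 higher with R792A_C793A.

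**Figure D1:**
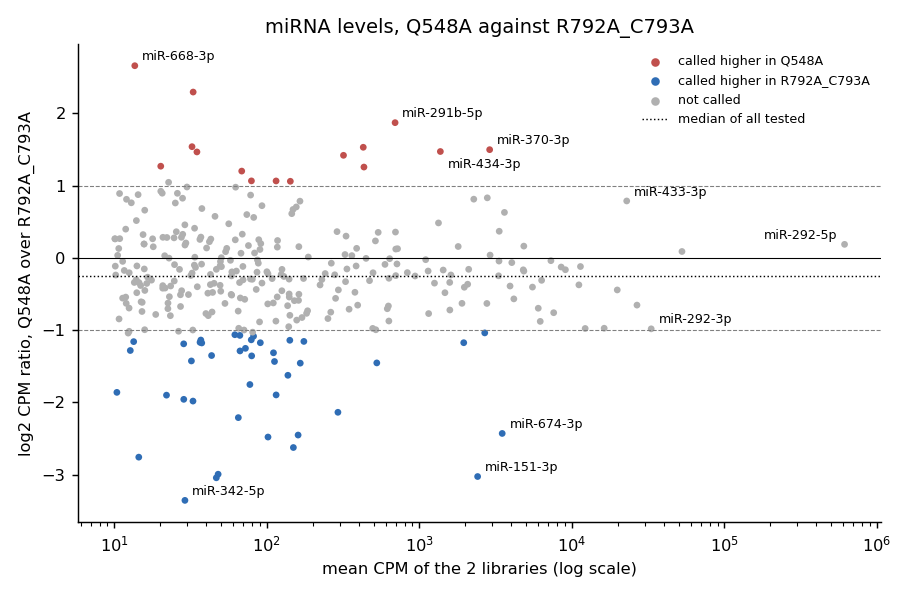
Log2 ratio of Q548A over R792A_C793A (vertical axis) against mean CPM of the 2 libraries (horizontal axis, log scale) for the 328 miRNAs, 1 point each. Coloured points are the 15 called higher with Q548A and the 42 called higher with R792A_C793A; the spread of ratios reaches from -3.36 to 2.66 around a median of -0.25.

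The 10 most abundant miRNAs made up 83.5% of counts with Q548A and 80.2% with R792A_C793A, and none of them was called. The miRNA miR-292-5p, from the cluster that mouse embryonic stem cells express most, was at 652733 CPM with Q548A and 572946 CPM with R792A_C793A. It alone was 65.3% of the Q548A library (Wilson 95% interval 65.26 to 65.28) and 57.3% of the R792A_C793A library (57.28 to 57.31). Its partner strand miR-292-3p went the other way, from 22232 CPM with Q548A to 43901 CPM with R792A_C793A, a log2 ratio of -0.98. Levels of miR-293-3p were 54259 and 51000 CPM, which differ by 0.09 on the log2 scale. The values for miR-294-3p, which carries the main seed of the cluster, were 20742 CPM with Q548A and 32617 CPM with R792A_C793A. From other families, miR-183-5p and miR-191-5p came close to the 2-fold limit. The levels were 10973 and 21546 CPM for the first and 8224 and 16183 CPM for the second, both higher with R792A_C793A. On the other side, miR-433-3p of the Dlk1-Dio3 cluster was at 28949 CPM with Q548A and 16754 CPM with R792A_C793A. Its log2 ratio of 0.79 became 1.06 on the median-of-ratios scale, where it was called. The remaining 3, miR-99b-5p, miR-543-3p and miR-127-3p, had log2 ratios between -0.44 and -0.12, and that of miR-543-3p changes sign on the median-of-ratios scale (0.16).

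Among the 143 miRNAs at 100 CPM or more, 16 were called higher with R792A_C793A. First in size was miR-151-3p, encoded in an intron of Ptk2 (chr15:73085250-73085270, build mm9). It had 49808 counts with Q548A and 240303 with R792A_C793A, or 526 against 4286 CPM, and wild type lay between at 1734 CPM. The R792A_C793A library was 8.15-fold higher, a log2 ratio of -3.03 (95% counting interval -3.04 to -3.01). The level of miR-674-3p (chr2:117010922-117010943) was 1091 CPM with Q548A and 5882 CPM with R792A_C793A, 5.39-fold higher, with wild type at 1793 CPM. The Hox-cluster strand miR-196a-1-3p (chr11:96126539-96126560) was at 41.6 and 256 CPM, 6.17-fold higher with R792A_C793A. For miR-148a-5p the levels were 108 and 476 CPM, a difference in the same direction (log2 ratio -2.14), and wild type held 194 CPM. Smaller called ratios in this direction included miR-140-5p at 63.3 and 157 CPM, which fell short of a call on the median-of-ratios scale. The first 4 of these miRNAs were thus low with Q548A and high with R792A_C793A, with wild type between the pair each time. Wild type lay between the mutants for 36 of the 57 called miRNAs and for 110 of the 328 compared.

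**Figure D2:**
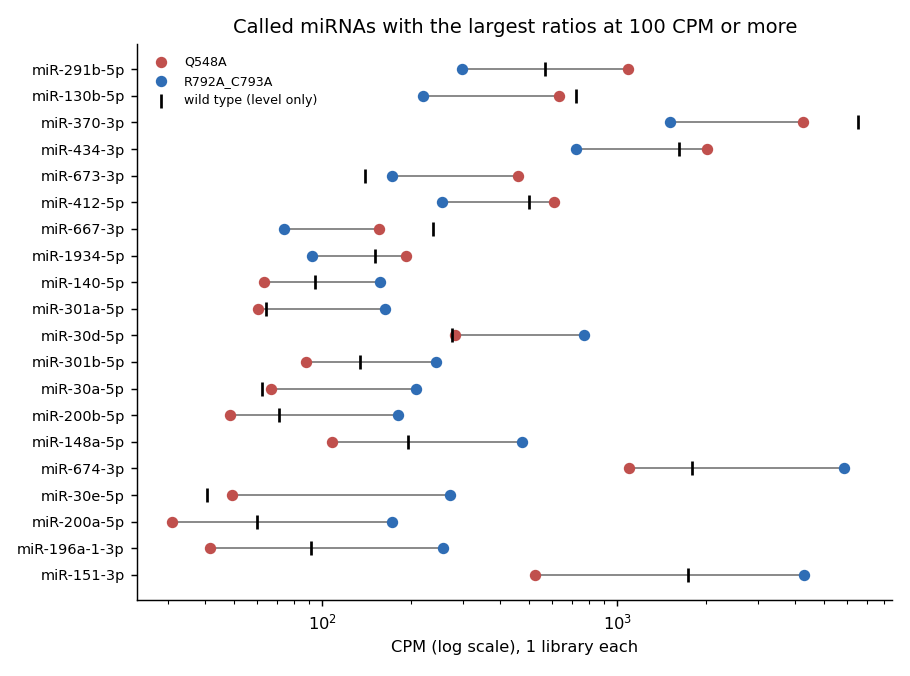
CPM (horizontal axis, log scale) in the Q548A, R792A_C793A and wild-type Ago2 libraries, 1 point each, for the miRNAs with the largest called ratios at 100 CPM or more, 8 higher with Q548A and 12 higher with R792A_C793A. Wild type lies between the 2 mutants for 13 of the 20.

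The miR-200 family, known for keeping the epithelial state, contributed miR-200a-5p and miR-200b-5p from 1 cluster on chromosome 4. Levels of miR-200a-5p (chr4:155429058-155429079) were 30.9 CPM with Q548A and 172 CPM with R792A_C793A, 5.58-fold higher. Those of miR-200b-5p were 48.6 and 181 CPM, 3.72-fold higher. Both strands begin with C and share the seed AUCUUAC. Their 3p partners differed less, with miR-200a-3p at 135 and 229 CPM and miR-200b-3p at 52.3 and 111 CPM, the latter called on the scale of totals only. Of the 7 members compared, 3 were called higher with R792A_C793A, beside 12.8% of all miRNAs, and none higher with Q548A. The family's median log2 ratio was -0.84 beside -0.25 over all miRNAs, and 2 of the 3 calls held on the median-of-ratios scale.

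In the miR-30 family 5 of 10 members were called higher with R792A_C793A, 4 of them 5p arms, beside 12.8% of all miRNAs, and 4 of the 5 calls held on the median-of-ratios scale. The level of miR-30e-5p (chr4:120445265-120445286, in an intron of Nfyc) was 49.4 CPM with Q548A and 271 CPM with R792A_C793A, 5.47-fold higher. Levels of miR-30a-5p were 67.2 and 207 CPM, and those of miR-30d-5p 281 and 769 CPM, so that all 3 were higher with R792A_C793A. Wild type was near Q548A for each, at 40.6, 62.5 and 275 CPM. In contrast miR-30c-5p was at 256 CPM with Q548A and 301 CPM with R792A_C793A, a log2 ratio of -0.23 that turns to 0.04 on the median-of-ratios scale. All 3 printed sequences share the seed GUAAACA, and miR-30a-5p and miR-30e-5p differ by the single substitution C13U, with positions counted from 1 at the 5′ end. With only 1 difference, reads of that pair may have been shared in the authors' counting, so their separate values are uncertain. Among the less abundant members, miR-30b-5p had 1010 counts with Q548A and 4766 with R792A_C793A, a log2 ratio of -2.99. It is singled out here after its values were seen. The family's median was -0.94 (5p arms -1.62, 3p arms -0.63) beside -0.25 over all miRNAs.

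Some seed groups were called as a whole. Of the 31 seeds held by at least 2 compared miRNAs (82 miRNAs in all), 9 had a called member and 4 had every member called. Over all 328 miRNAs 17.4% were called in either direction, and whether calls gather by seed was not tested. Those 4 were the pairs miR-148a-5p and miR-148b-5p, miR-200a-5p and miR-200b-5p, miR-301a-5p and miR-301b-5p, and miR-146a-5p and miR-146b-5p, all higher with R792A_C793A. The last pair, known for damping inflammatory signalling, was scarce in these cells. It is described after its values were seen, because it was 1 of the 4. There were 953 counts of miR-146a-5p with Q548A and 4654 with R792A_C793A, a log2 ratio of -3.04. For miR-146b-5p the counts were 4222 and 6399, a log2 ratio of -1.36. Since miR-146a-5p and miR-146b-5p differ at 2 bases, some reads may have been assigned to either, and their separate values are uncertain. The spread of log2 ratios within a seed had a median of 0.42 and reached 2.22, in the miR-30 seed.

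A pair of neighbouring hairpins on chromosome 16 differed in opposite directions. The starts of miR-130b-5p (chr16:17124202-17124223) and miR-301b-5p lie 347 nt apart in an intron of the same gene, 2610318N02Rik. Below, the last 10 bases, which miR-301a-5p from chromosome 11 shares, are in capitals.
miR-130b-5p: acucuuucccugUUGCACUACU
miR-301b-5p: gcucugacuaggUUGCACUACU
miR-301a-5p: gcucugacuuuaUUGCACUACU
The level of miR-130b-5p was 636 CPM with Q548A and 220 CPM with R792A_C793A, 2.89-fold higher with Q548A. That of miR-301b-5p was 88.3 and 242 CPM, 2.74-fold higher with R792A_C793A, and miR-301a-5p stood at 60.5 and 164 CPM. These strands share a 3′ end, but miR-130b-5p differs from the others in seed as well as in first base (A against G). It was called in the opposite direction, and whether either difference bears on that was not tested. For miR-130b-5p the wild-type level of 724 CPM was close to Q548A. The 3p partner miR-130b-3p was at 21.8 and 43.5 CPM, higher with R792A_C793A like miR-301b-5p.

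Of the 15 miRNAs called higher with Q548A, 8 were at 100 CPM or more. The first was miR-291b-5p of the miR-290 cluster (chr7:3219495-3219516), with 102948 counts with Q548A and 16638 with R792A_C793A. Its levels of 1087 and 296.8 CPM differ 3.66-fold, a log2 ratio of 1.87 (95% counting interval 1.85 to 1.90), with wild type at 567 CPM. Its relative miR-291a-5p has the same seed and differs from it at 2 bases in all.
miR-291a-5p: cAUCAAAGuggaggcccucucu
That strand begins with C, and its 3758 and 2909 CPM gave a log2 ratio of 0.37. Because the pair is nearly identical, some reads may have been assigned to either, and the separate values are uncertain.

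The Dlk1-Dio3 cluster on chromosome 12, an imprinted locus whose miRNAs come from the maternal chromosome, held 10 of the 15 calls higher with Q548A. Among them miR-370-3p (chr12:110856515-110856536, in an intron of Rian) was at 4263 CPM with Q548A and 1508 CPM with R792A_C793A, 2.83-fold higher, and at 6551 CPM with wild type. Levels of miR-673-3p were 462 and 173 CPM, 2.68-fold higher with Q548A. Those of miR-412-5p were 610 and 255 CPM, 2.39-fold, and those of miR-667-3p 155 and 74.2 CPM, 2.09-fold. Outside the cluster, miR-1934-5p was at 192 and 92.2 CPM. The largest ratio toward Q548A in the cluster was that of miR-668-3p, in an exon of Mirg. It had 2223 counts with Q548A and 208 with R792A_C793A, 6.33-fold higher, a log2 ratio of 2.66. Not all of the cluster went that way. Its lowest log2 ratio was -2.76, for the C-first miR-341-5p, which lies further from no change than that of miR-668-3p. Of its 62 members compared, 10 were called higher with Q548A and 5 higher with R792A_C793A, and the median was -0.04 beside -0.25 over all miRNAs. Median-of-ratios scaling gave 16 and 1 calls and turns that median positive. Arms of the cluster were also counted separately. Of its 36 3p arms, 9 were called higher with Q548A and 1 higher with R792A_C793A, with a median of 0.14. Among the 117 3p arms outside the cluster 1 and 17 were called. Of its 26 5p arms, 1 and 4 were called, with a median of -0.25, beside 4 and 20 of the 149 5p arms outside. Among the 266 miRNAs outside the cluster, 5 were called higher with Q548A and 37 higher with R792A_C793A. The 5p arms called higher with R792A_C793A included miR-411-5p at 1198 and 2703 CPM and miR-434-5p at 1755 and 3603 CPM, both named after their values were seen. Both calls were lost on the median-of-ratios scale, where the log2 ratios were -0.90 and -0.76.

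The miR-290 cluster as a whole made up 77.5% of the counts with Q548A and 73.3% with R792A_C793A. Only miR-291b-5p was called among its 13 compared arms, and the cluster's median of -0.25 equalled that of all miRNAs to the second decimal. Its 7 5p arms had a median of 0.19, from -0.88 for miR-290-5p to 1.87, while its 6 3p arms had a median of -0.71, from -0.98 for miR-292-3p to 0.09. The miR-302 cluster, the second stem-cell cluster, was scarce, at 951 CPM over 10 arms with Q548A and 758 CPM with R792A_C793A, and 2 of the 10 arms were at 0 in both. Its 3 compared members included miR-302b-3p at 782 and 610 CPM, and none was called.

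The let-7 family, whose guides accumulate on differentiation, gave 1 call in 8, near the 12.8% of all miRNAs, for the passenger strand let-7d-3p. Its level was 108 CPM with Q548A and 241 CPM with R792A_C793A, a log2 ratio of -1.16 that fell short of a call on the median-of-ratios scale (-0.88). Its guide let-7d-5p was at 115 and 69.9 CPM, a log2 ratio of 0.72. The 7 let-7 5p arms compared had a median of 0.25, above the -0.25 of all miRNAs, with none called. Of the 23 compared members of miR-17-92 and its paralogs, known for driving proliferation, none was called, with a median of -0.17. The scarce miR-17-3p, named after its values were seen, was called higher with Q548A on the median-of-ratios scale (from 0.92 to above 1 on the log2 scale). Of the abundant members, miR-25-3p was at 3272 and 3372 CPM and miR-92a-3p at 1194 and 1969 CPM. The 16 members of the Sfmbt2 cluster, a rodent repeat cluster, had a median of 0.17 and no call. In the cluster of miR-183, miR-96 and miR-182, which is known from sensory cells, 1 of 6 was called higher with R792A_C793A, the scarce miR-96-3p, named after its values were seen. The cluster's summed level was 14883 CPM with Q548A and 26823 CPM with R792A_C793A. In the miR-15/16 family 1 of 7 was called, miR-195-3p, at 35.4 and 119 CPM. These counts of 1 in 6 and 1 in 7 are near the 12.8% of all miRNAs called in this direction. Of 7 miRNAs listed as made without Dicer or without Drosha, miR-668-3p was the only one called. It was higher with Q548A (14.3% of the list, beside 4.57% of all miRNAs) and is also counted in the Dlk1-Dio3 cluster. Another of them, miR-320-3p, was at 1068 and 1211 CPM.

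**Figure D3:**
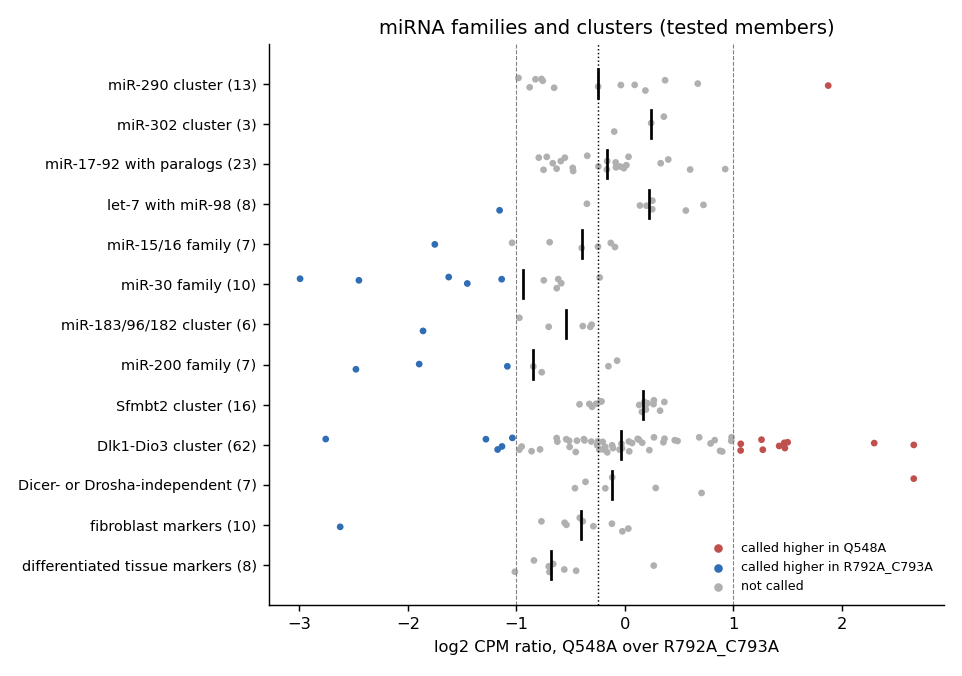
Log2 ratio of Q548A over R792A_C793A (horizontal axis) for each compared member of the 13 lists (rows), 1 point a miRNA, with the list median as a bar and the median of all 328 miRNAs as a line at -0.25. The miR-30 and miR-200 families lie to the left, with medians of -0.94 and -0.84, and the Dlk1-Dio3 members spread widely to both sides.

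Markers of other cell types were higher in sum with R792A_C793A. The 26 fibroblast marker arms summed to 2293 CPM with Q548A and 3211 CPM with R792A_C793A, with 1 arm at 0 in both, and miR-196a-1-3p was the only call among the 10 compared. The median log2 ratio of these 10 was -0.40, beside -0.25 over all miRNAs, and the highest was 0.03. In this list miR-22-3p stood at 849 and 1448 CPM and miR-21-5p at 95.2 and 138 CPM. In contrast the abundant miR-143-3p was level, at 1089 and 1108 CPM. Its log2 ratio was -0.02, and 0.25 on the median-of-ratios scale. The 23 arms that mark differentiated tissues summed to 5181 and 8382 CPM, mostly miR-128-3p at 4587 and 7434 CPM. Of these 23, 5 were at 0 in both, and none of the 8 compared was called, with a median of -0.68. Their part in the calls higher with R792A_C793A was not tested. Only RNA pulled down with the Flag-tagged Ago2 was sequenced, from cells in bulk. The number of cells of a type, the RNA per cell and the amount held by the mutant therefore cannot be told apart. The empty control held between 0 and 114 counts of each called miRNA, with a median of 2.

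By first base, the C-first strands had the lowest median. RefSeq sequences were matched for 269 of the 328 miRNAs. Of the 45 that begin with C, 9 were called higher with R792A_C793A (20%, beside 12.8% of all) and 0 higher with Q548A, with a median of -0.56 beside -0.25 over all miRNAs. On the median-of-ratios scale 6 and 0 were called. The 124 U-first miRNAs had 8 calls higher with Q548A, 9 higher with R792A_C793A and a median of -0.16. Of those 8 calls, 7 lay in the Dlk1-Dio3 cluster, among 24 U-first members with a median of 0.26. The 100 U-first miRNAs outside the cluster had 1 and 7 calls and a median of -0.24, beside -0.31 for all miRNAs outside it. The 74 A-first miRNAs had 3 and 9 calls and a median of -0.25. The 26 G-first miRNAs had the largest share of calls of the 4 bases in both directions, 4 higher with Q548A (15.4%, beside 4.57% of all) and 7 higher with R792A_C793A (26.9%, beside 12.8%), with a median of -0.19. On the median-of-ratios scale these were 5 and 4. Among called miRNAs at 100 CPM or more, 8 were higher with Q548A and 16 higher with R792A_C793A. All 6 that begin with C were higher with R792A_C793A, while the 8 that begin with U divided into 5 and 3. Those that begin with A divided into 1 and 1, and those that begin with G into 2 and 3. The U-first calls higher with Q548A were miR-434-3p, miR-673-3p, miR-412-5p and miR-667-3p of the Dlk1-Dio3 cluster, and miR-1934-5p outside it. The medians of the 4 bases spread over 0.40 at position 1 and over 0.11 to 0.27 at positions 2 to 8. GC content, length and level tracked the log2 ratio little, with Spearman rho of 0.075 and 0.016 over the 269 miRNAs with a sequence and -0.054 over all 328, given as descriptions across miRNAs of the same 2 libraries.

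Arm choice within a hairpin does not depend on library size, since both arms come from the same library. Of 381 hairpins with at least 100 counts, the less abundant arm was called higher with Q548A in 42 (11.0%) and higher with R792A_C793A in 55 (14.4%). A call required the 95% interval of the odds of minor to major arm to lie beyond 2-fold. The median difference in log2(minor/major) was -0.21, with quartiles of -1.13 and 0.71. Calls thus went both ways in terms of major and minor arm.

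The more abundant arm differed between the mutants in 21 hairpins, 11 of which were called. In miR-434 of the Dlk1-Dio3 cluster the 5p arm was 46.5% of the hairpin with Q548A (Wilson 95% interval 46.4 to 46.7) and 83.2% with R792A_C793A (83.1 to 83.4), with 59.0% in wild type. Both its arms were called, in opposite directions, though the call of the 5p strand was lost on the median-of-ratios scale (-0.76). The 3p strand, which begins with U, was at 2015 CPM with Q548A and 726 CPM with R792A_C793A, whereas the G-first 5p strand was at 1755 and 3603 CPM. The let-7d hairpin, printed above, was 51.6% 5p with Q548A (50.96 to 52.31) and 22.5% with R792A_C793A (21.9 to 23.1), so that the C-first passenger outnumbered the guide with R792A_C793A. Apart from miR-342, the hairpins named here were chosen from the 11 after their values were seen. In miR-342, from an intron of Evl, the 5p arm was 33.3% with Q548A (30.9 to 35.7) and 87.0% with R792A_C793A (85.8 to 88.1). In miR-673 it was 35.02% with Q548A (34.7 to 35.4) and 66.2% with R792A_C793A (65.7 to 66.8). Its 3p arm begins with U and its 5p arm with C. In miR-196a-1 the 5p arm was 62.8% with Q548A (61.9 to 63.7) and 25.1% with R792A_C793A (24.5 to 25.7). The strand miR-196a-5p has 2 loci, so its counts may include reads of another hairpin. The shares of miR-196a-1 are uncertain for that reason. The sequences of miR-342, which has A at the 5p start and U at the 3p start, are added here since its change was the widest of these.
miR-342-5p: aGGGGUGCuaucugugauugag
miR-342-3p: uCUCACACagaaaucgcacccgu

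**Figure D4:**
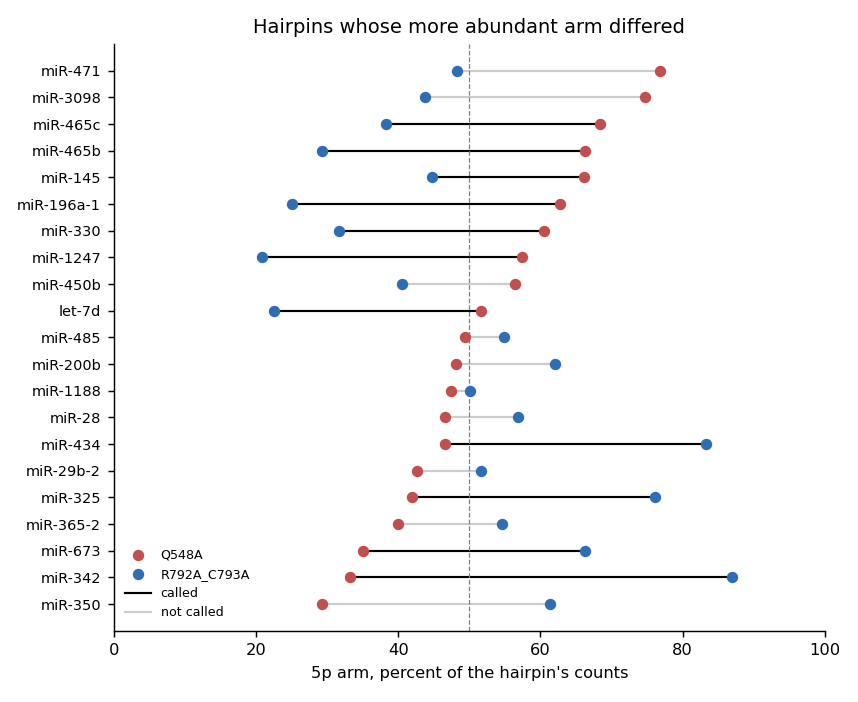
Share of the 5p arm in percent of the hairpin's counts (horizontal axis) with Q548A and with R792A_C793A, joined by a line, for the 21 hairpins (rows) whose more abundant arm differed; black lines are the 11 called and the dashed line marks equal arms. Pairs cross it in both directions, for example miR-434 from 46.5% with Q548A to 83.2% with R792A_C793A and let-7d from 51.6% to 22.5%.

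Where the major arm was the same in both libraries, the share of the minor arm still differed by large factors. The 5p arm of miR-151 was 7.16% of the hairpin with Q548A and 0.768% with R792A_C793A, a log2 odds ratio of 3.32. Its 5p strand miR-151-5p was at 40.6 and 33.2 CPM, so the arms parted through the 3p strand. The 5p arm of miR-674 was 2.69% with Q548A and 0.419% with R792A_C793A, a log2 odds ratio of 2.72, and miR-674-5p itself was at 30.2 and 24.8 CPM. In both hairpins, then, the partner strand was held at like levels and the 3p strand was not. In miR-1306, from an exon of Dgcr8, the major 5p arm held 91.4% with Q548A and 98.7% with R792A_C793A, and that C-first strand was at 88.1 and 194 CPM. In the other direction, miR-1249 had 0.231% of its counts on the minor 5p arm with Q548A (0.158 to 0.338) and 4.52% with R792A_C793A (4.078 to 5.002). Larger odds rested on few counts. The hairpin miR-3091 had 48 and 49 counts of its arms with Q548A and 1 and 75 with R792A_C793A, a log2 odds ratio of 5.62 with an interval of 3.53 to 11.55. The minor 3p arm of miR-505 had 1 count with Q548A and 9 with R792A_C793A, a log2 odds ratio of -4.62 with an interval of -10.58 to -2.28. The 3p arm of miR-26a-1, whose 5p strand has 2 loci and may include reads of another hairpin, had 0 and 14 counts. Its odds were at least 5.32-fold lower with Q548A when the 0 is taken as 3 counts. The 5p arm of miR-101a had 0 counts with Q548A and 21 with R792A_C793A, at least 21.6-fold lower by the same reckoning. In the miR-290 cluster the 5p arm of miR-291a took 23.4% of the hairpin with R792A_C793A (23.3 to 23.5) and more with Q548A (interval 39.9 to 40.1). That of miR-292 took 96.7% with Q548A and 92.9% with R792A_C793A, and both hairpins were called. The 5p share of miR-290 was 97.3% and 97.4%, and that of miR-293 11.7% and 12.6%, neither called.

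Read by the first base of the arms, the U-first strand took the larger share with Q548A in most hairpins. The hairpins taken were those whose arms begin with different bases and had more than 3 counts in at least 1 library. In 138 of them one arm begins with U, and the log2 ratio of that arm to its partner was higher with Q548A in 99 (71.7%), with a median difference of 0.62 and quartiles of -0.13 and 1.73. Calls beyond 2-fold went toward the U-first arm with Q548A in 35 of them and away from it in 6, against the 25.5% of all hairpins called in either direction. The median difference was 0.80 against C-first partners (52 hairpins), 0.44 against A-first partners (52) and 0.90 against G-first partners (34). Where the U-first arm was the major one the median was 0.47 over 107 hairpins, and where it was the minor one 1.19 over 31 hairpins, of which 28 were higher with Q548A. It was 0.56 over 19 hairpins of the Dlk1-Dio3 cluster and 0.65 over 119 others, and 0.80 for U-first 5p arms and 0.52 for U-first 3p arms. As a baseline, the ratio of 5p to 3p arm was higher with Q548A in 167 of 329 hairpins (50.8%), with a median of 0.02, and in 27 of 60 hairpins whose arms begin with the same base. C-first arms were lower with Q548A against A-first partners in 19 of 27 hairpins, with a median of -0.44. Calls went toward the C-first arm with Q548A in 3 of these and away from it in 7. Where the C-first arm was the major one the median was -0.57 over 16 hairpins, and where it was the minor one -0.015 over 11. Against G-first partners the median was -2.49 over 12, or -1.68 with a pseudocount of 5 in place of 0.5 and -1.59 with no limit on arm counts. A-first and G-first partners differed by a median of 0.06 over 14 hairpins. These medians describe hairpins of 2 libraries, and hairpins are not replicates of a mutant.

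**Figure D5:**
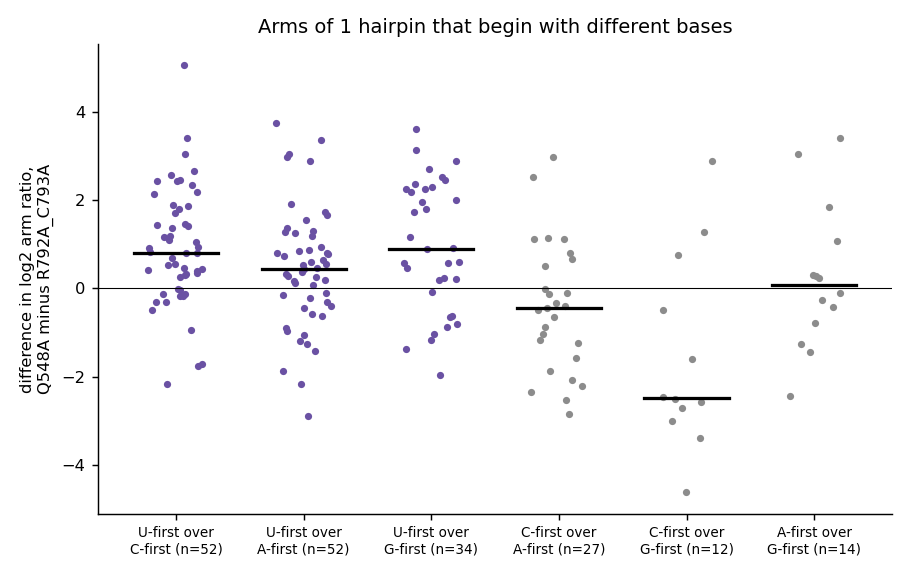
Difference between Q548A and R792A_C793A in the log2 ratio of the arms of a hairpin (vertical axis), grouped by the first bases of the arms (horizontal axis), 1 point a hairpin, spread sideways for sight, with a bar at the median. The groups with a U-first arm have medians of 0.80, 0.44 and 0.90 above 0, while C-first over G-first lies at -2.49.

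For scale, the pair GKT_GKGT and PGKTP_AAAAA, which shares no library with the 2 mutants here, was read in the same way. There 87 of 303 miRNAs were called higher with GKT_GKGT (28.7%) and 15 higher with PGKTP_AAAAA (4.95%). Together these are 33.7%, beside 17.4% for the 57 of 328 here, and the log2 ratios spread over an interquartile range of 1.47 beside 0.85. Hairpins were called in 87 of 350 (24.9%) beside 97 of 381 (25.5%). Calls of the other pair were counted on the scale of totals only. By that count and by spread, Q548A and R792A_C793A lay closer than the other pair in miRNA levels. In arm choice the share called was alike, and the difference in log2(minor/major) had an interquartile range of 1.84 here and 2.16 there. No test of either contrast can be made with 1 library for each mutant. In that pair the U-first arm had a median difference of -0.96 in GKT_GKGT over PGKTP_AAAAA.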

How the data were processed

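The deposited table holds raw counts for 1078 mature miRNA loci in the 7 libraries, which the authors did not normalise, per the file headers and values. CASAVA 1.8.2, TopHat2 2.0.9 and build mm9 are named in the submitters' processing notes. The NEBNext Small RNA kit and an Illumina HiSeq were used, per the labels' protocols. For the counting program, the miRNA annotation, strand use and multiply matching reads, the sources used here give nothing. If such reads were counted at every locus, near-identical miRNAs share counts, which is why loci were not summed.

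Of the 1078 rows, 116 were at 0 in every library. Each of 959 mature names was counted once, by its highest locus, since 55 of the 64 names with several loci and counts had equal counts there, within 1% or 3 counts. Names with equal counts in all libraries and a sum of at least 200 were merged, which removed 9 and left 950. CPM used the total as library size, and 328 miRNAs passed a mean of 10 CPM. Another locus overlaps 9 of these, and 0 of the 9 were called. Ratios carry exact conditional 95% intervals. A hairpin needed loci of both arms within 150 nt and a sum of at least 100 counts in the 2 libraries. Its odds ratio carries an exact conditional interval, or Woolf's where all 4 counts reach 500. Log2 arm ratios use a pseudocount of 0.5. Sequences came from RefSeq (GRCm38.p6), 266 matched by name and 3 by symbol and arm. Host genes came from GENCODE M21 by name.

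The text names the 10 most abundant miRNAs, up to 12 largest called ratios in each direction at 100 CPM or more, hairpins from the 8 largest called differences in each direction, and up to 4 abundant members and the extremes of each list. Exceptions are marked where they occur. The pair of libraries, the 13 lists and the first-base reading were chosen with earlier results of these data known. The scripts were tested on simulated counts. Python 3.11.15, numpy 2.4.6, scipy 1.17.1, pandas 2.3.3 and matplotlib 3.10.9 were used.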

Additional observations from a re-analysis of the deposited data

How the results depend on the processing

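With 1 library on each side, differences between cultures, pulldowns and library preparations could not be measured, and the intervals cover counting error only. No paired analysis was possible because each genotype has a single library. The number of miRNAs called higher with Q548A, 15, became 29 with median-of-ratios scaling, 29 with miR-292-5p left out of the library size, 32 with no filter on low counts, 8 at a mean of at least 100 CPM and 37 at a 1.5-fold limit. The number called higher with R792A_C793A, 42, became 23, 23, 96, 16 and 89 in the same order. Either change of scale turned the share of calls that were higher with Q548A from 26.3% into 55.8%. Leaving miR-292-5p out moved each log2 ratio by 0.30. Of the 57 calls, 38 were kept on each of these scales, and no call changed sign. Summing loci, keeping equal names apart and calling on the ratio itself left both counts within 1.5 times.

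Of the 398 values under these alternatives of the 68 miRNAs that the naming rule picked, 364 kept their direction and call, 4 lost a call and 2 gained one. The other 28 are uncalled ratios near 0 that changed sign with the scale. Among these 68, the calls lost were let-7d-3p and miR-140-5p (-1.04 and -1.01) under the 2 changes of scale, and the call gained was miR-433-3p. Of the miRNAs named outside the rule, miR-434-5p, miR-411-5p and miR-200b-3p lost their calls with median-of-ratios scaling (-0.76, -0.90 and -0.81) and miR-17-3p gained one. At a mean of at least 100 CPM the miR-30 family had 3 calls higher with R792A_C793A and the Dlk1-Dio3 cluster 5 and 2. With no filter, C-first miRNAs had 3 calls higher with Q548A and 31 higher with R792A_C793A.

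The odds ratio itself, without its interval, called 76 hairpins with the minor arm higher in Q548A and 106 with it higher in R792A_C793A, where the interval had called 42 and 55. The median difference in log2(minor/major) ranged from -0.24 to -0.02 over 4 alternatives. The median for U-first arms, 0.62, was 0.58 with no limit on arm counts, 0.72 for names with 1 locus and 0.60 with a pseudocount of 5. The limit on arm counts and these last alternatives were chosen after seeing the data.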
